A study of Chlorocebus aethiops with 8 samples.

Results

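The comparison set polysomal RNA beside cytoplasmic RNA of COS cells that had received scrambled control siRNA, so it describes how mRNAs were distributed onto polysomes while RNA helicase A (RHA, the DExH-box helicase encoded by DHX9) was present at its normal level. The members were chosen by their titles: 2 arrays of the polysome fraction and 2 arrays of the cytoplasm under control siRNA, which are 4 of the 8 arrays of the study. The quantity followed is the log2 ratio of polysomal over cytoplasmic intensity, taken within each replicate number and then averaged. A value of 0 means the same intensity in both fractions. The arrays that carry number 1 are called set 1 here, and those with number 2 are called set 2.

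COS cells are a fibroblast-like kidney line of the African green monkey that expresses the SV40 large T antigen, and the arrays were Affymetrix rhesus macaque arrays, so the probes were designed on a related species. Control cells received scrambled siRNA at 0.5 nM. The other 4 arrays, 2 of each fraction, came from cells that received siRNAs against RHA at the same concentration, aimed at 2 sites of the human coding region, nucleotides 2701 to 2721 and nucleotides 2784 to 2803. Per the labels, all cells were grown on 7 plates of 100 mm, kept 4 h without serum after transfection and then 24 h in 10% fetal bovine serum, split, and transfected again, and 25 ng of RNA was amplified for each array. The controls thus carried both transfections and the period without serum. Whether the replicates were separate cultures is not stated, and p-values here measure only the spread between these arrays, which may be technical.

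An mRNA that is being translated carries several ribosomes and sinks deep into a sucrose gradient, while an mRNA that is stored or repressed stays in lighter fractions. The share of an mRNA that lies in polysomes is therefore read as its ribosome loading. mRNAs of ribosomal proteins begin with a pyrimidine tract (the TOP motif) that makes their loading depend on serum and growth signals, and mRNAs with upstream open reading frames or strongly folded leaders are known for poor loading. Because the same mass of RNA was amplified from each fraction, the ratios rank transcripts against each other and do not measure how much of all mRNA was on polysomes. More of a transcript in polysomes and less of it elsewhere in the cytoplasm cannot be told apart.

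The arrays had median intensities of 19.3 to 20.8. The sets differed as wholes: arrays of a set correlated across probe sets at a Pearson's r of 0.931 to 0.987, and both arrays of a group only at 0.826 to 0.861. One array stood apart, the cytoplasmic array of set 1 under control siRNA: its median r to its set was 0.949, and no other array had less than 0.967. Within the control siRNA pair, r was 0.952 in set 1 and 0.987 in set 2. Every result below that uses set 1 rests on the array that stood apart, so values are given for each set, and set 2 holds the values without it. Values given below without 1 control siRNA array come from a fit and are another measure. That fit keeps the other array of the pair and takes the difference between sets from groups with both arrays, RHA siRNA groups included. DHX9, the siRNA target, had an intensity of 244 and 342 in cytoplasmic control RNA (sets 1 and 2) and 130.1 and 254 in cytoplasmic RHA siRNA RNA, and 359 and 477 in polysomal control RNA against 97.2 and 269, so it was lower under RHA siRNA in each fraction of each set. Of the cell type markers, VIM, the intermediate filament gene of mesenchymal cells, had a mean log2 intensity of 12.16 in cytoplasmic and 12.30 in polysomal control RNA. The 10 measured of 16 fibroblast and mesenchymal markers had a median log2 level over all arrays of only 5.88, against 6.73 for all genes. This median was 5.86 for kidney tubule markers and 5.68 for leukocyte markers. Of 16 kidney tubule markers 8 were measured, with AQP1, a water channel, and EPCAM, an epithelial adhesion molecule, the brightest at a mean over all arrays of 10.41 and 8.40. Of 15 leukocyte markers 5 were measured, and the brightest was CD68, a macrophage marker, at 7.15.

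No transcript passed the test. Of 26383 probe sets tested with limma, 0 were called higher (0%) and 0 lower (0%) in polysomal RNA at a Benjamini-Hochberg adjusted p under 0.05, and the smallest adjusted p was 0.958. At an unadjusted p under 0.05 there were 1087 probe sets (4.12%), and 1319 would pass that mark if no probe set differed. The median standard error of a mean ratio was 0.27. The median 95% interval, not adjusted for the number of probe sets, reached 0.629 to either side on the log2 scale. The values that follow therefore describe which transcripts lay higher or lower in both sets and by how much. Without the cytoplasmic array of set 2 there were 748 calls, 734 of them higher, but the only cytoplasmic control array in that fit is then the one of set 1, which is assumed to vary like the other groups. Without the cytoplasmic array of set 1 there were 0 calls and 713 at an unadjusted p under 0.05.

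The sets gave ratios of different spread. In set 1 the ratios of the tested probe sets had a median of 0.09 and an SD of 0.62, with 2597 higher in polysomal RNA by 2-fold or more and 148 lower by as much. In set 2 the median was 0.02 and the SD 0.33, with 53 and 135 past those marks. Across the 10106 genes, each read by its brightest probe set, the ratios of the sets had a Pearson's r of 0.04 and a Spearman's rho of 0.07, given as a description since genes share their arrays. Both sets were above 0 for 3581 genes (35.4%) and below 0 for 1899 (18.8%), and the sets had opposite signs for 4623. The share of genes with a mean ratio above 0 was 61.8%, and 45.9% after quantile normalization, which moved the median of all genes from 0.08 to -0.03. For this reason gene groups are read below against the median of all genes in the same set, 0.10 in set 1 and 0.05 in set 2.

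**Figure D1:**
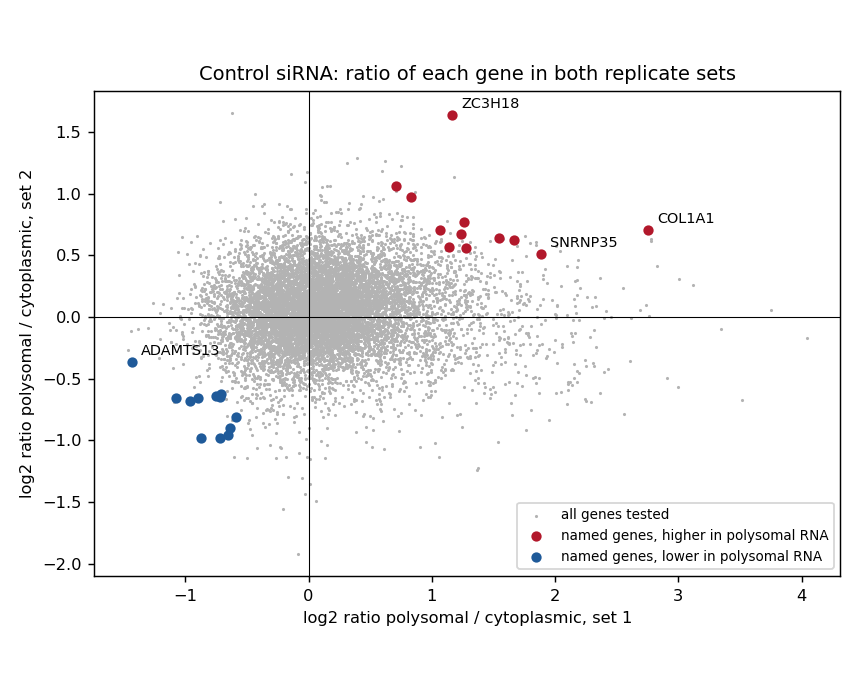
Log2 ratio of polysomal over cytoplasmic intensity under control siRNA for each gene tested, set 1 on the horizontal and set 2 on the vertical axis, with the 12 named genes per direction coloured. The cloud is wider along set 1 and has no slope (r 0.04). The named genes sit at the corners where both sets have the same sign, as the rule that names them requires.

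How a transcript read depended on which end of it was probed. The array carries separate 3' and 5' probe sets for actin, GAPDH and EF1A, which are widely used housekeeping transcripts. In set 1 the actin ratio was 0.16 at the 3' end and 2.33 at the 5' end, and the GAPDH ratio was -0.02 at the 3' end and 1.80 at the 5' end. EF1A, the elongation factor that delivers tRNAs to the ribosome, read 0.20 at the 3' end and 0.84 at the 5' end in set 1. In set 2 actin read -0.03 at the 3' end and -0.82 at the 5' end, and GAPDH read 0.10 and -0.13. The 5' ends of actin and GAPDH were thus higher in polysomal RNA in set 1 and lower in set 2, while their 3' ends stayed within 0.16 of 0 in both. The control transcripts added at hybridisation had a mean log2 intensity of 10.6 on the polysomal and 11.3 on the cytoplasmic array in set 1, and 12.1 and 12.2 in set 2. The part of these differences in the gene ratios was not tested. For the 3831 genes with at least 2 tested probe sets, the brightest and the next brightest had the same sign in 57.8% in set 1 and 58.8% in set 2, with an r of 0.11 and 0.23.

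**Figure D2:**
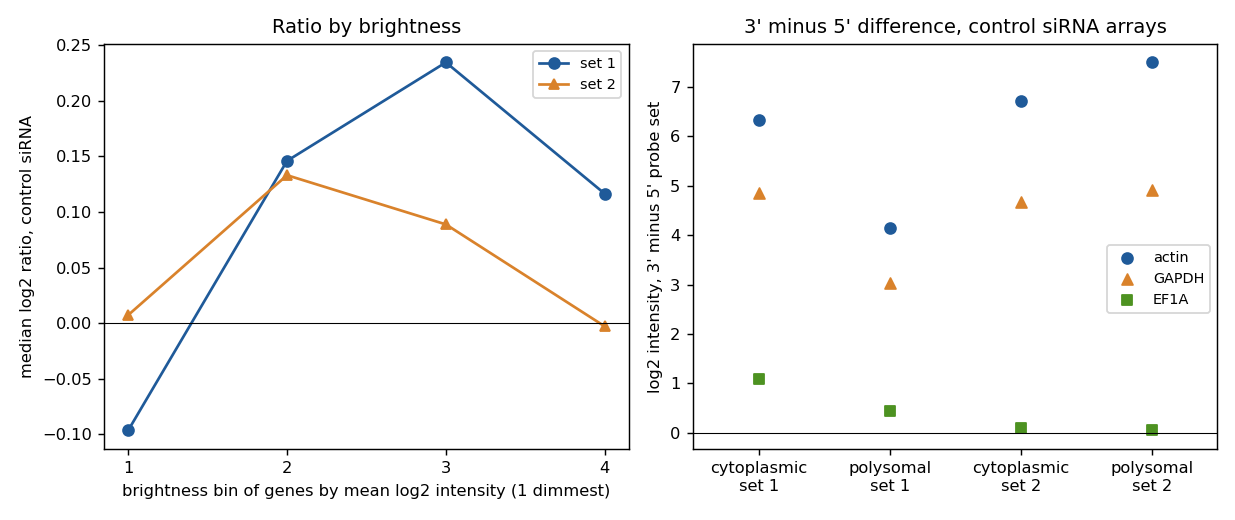
Left, median log2 ratio of genes under control siRNA in 4 bins of equal size by mean log2 intensity, by set. Right, 3' minus 5' log2 intensity of the actin, GAPDH and EF1A control probe sets on each control siRNA array. The actin difference is 6.33 on the cytoplasmic and 4.15 on the polysomal array of set 1, and 6.70 and 7.49 in set 2.

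The ratios also varied with brightness, with genes ranked by mean intensity into 4 bins of equal size. In the dimmest bin the median ratio was -0.10 in set 1 and 0.0073 in set 2. In the second bin the medians were 0.15 and 0.13, in the third 0.23 and 0.09, and in the brightest 0.12 and -0.0029. Genes of middle brightness thus had the highest ratios in both sets.

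Genes at least 2-fold different in both sets were few. In the same direction in both sets there were 4 such probe sets higher (0.0152%) and 2 lower (0.00758%), against 19 that were 2-fold different in opposite directions. The higher ones with a gene name were ZC3H18, a zinc-finger protein that links the nuclear cap-binding complex to RNA decay, SART1, a component of the spliceosome's tri-snRNP, and DHX30, a DExH-box helicase of mitochondrial RNA granules. SART1 and DHX30 fall outside the rule for named genes and were chosen after their values were seen. SART1 had an intensity of 20.5 and 17.2 in cytoplasmic and 46.3 and 37.8 in polysomal RNA, a ratio of 1.18 in set 1 and 1.14 in set 2. DHX30 had 22.9 and 12.98 in cytoplasmic and 86.4 and 29.4 in polysomal RNA. Its ratios were 1.91 and 1.18. Their mean log2 intensities in cytoplasmic RNA, 4.23 for SART1 and 4.11 for DHX30, were below the limit of 4.32 that the rule for named genes sets in each fraction.

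The genes named as higher in polysomal RNA are described by their known roles, in no order of rank. Of those that act in RNA processing, ZC3H18 had an intensity of 27.8 and 19.4 in cytoplasmic and 62.4 and 60.4 in polysomal RNA, with the values of sets 1 and 2 in that order here and below. Both polysomal arrays lay above both cytoplasmic ones, and the mean ratio was 1.40 ± 0.34 (SE, n = 2 per group), a 2.64-fold higher level. SFSWAP, a regulator of alternative splicing, had 40.7 and 58.1 in cytoplasmic and 119 and 90.3 in polysomal RNA, a mean ratio of 1.09 ± 0.27. SNRNP35, a protein of the minor spliceosome, had 27.6 and 87.4 against 102 and 124. Its ratio was 1.88 in set 1 and 0.51 in set 2, so most of its mean came from the set with the array that stood apart.

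Others act in protein turnover and transport. UBA1, the main enzyme that activates ubiquitin, had an intensity of 147 and 159 in cytoplasmic and 352 and 271 in polysomal RNA, with ratios of 1.26 and 0.77 and no overlap. COPS6, a subunit of the COP9 signalosome that removes NEDD8 from ubiquitin ligases, had 273 and 440 against 869 and 678, with ratios of 1.67 and 0.62. CLIP3, a microtubule-associated protein of the trans-Golgi network, had 148 and 143 against 310 and 233. For CLIP3 the arrays of a fraction were close to each other and the fractions did not overlap, with a mean ratio of 0.89 ± 0.24.

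Further named genes encode transcription factors, receptors and matrix proteins. MTF1, the factor that induces metallothioneins under zinc, had an intensity of 29.8 and 22.2 in cytoplasmic and 52.8 and 43.7 in polysomal RNA, with ratios of 0.83 and 0.98. FOSL2, the AP-1 subunit also called FRA2, had 62.5 and 60.0 against 102 and 125, with ratios of 0.71 and 1.06. With ZC3H18, these were the genes named as higher whose ratio was larger in set 2. IGF1R, the receptor of insulin-like growth factor 1, had 214 and 31.2 against 519 and 46.0. Its level differed so much between the sets that the fractions overlapped, although it was higher in polysomal RNA within each set, by 1.28 and 0.56. COL1A1, a chain of type I collagen, had 56.5 and 19.3 against 381 and 31.4, with ratios of 2.75 and 0.70 and overlapping fractions. OOEP, a protein of the oocyte's subcortical maternal complex, had ratios of 1.24 and 0.67, and FIBP, a protein that binds acidic fibroblast growth factor, had 1.14 and 0.57.

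For the 12 genes named as higher, the mean ratios ran from 0.85 to 1.73 (1.81-fold to 3.31-fold), with standard errors of 0.23 to 0.46. In 10 of them the fractions did not overlap, against 1033 of all 10106 genes (10.2%) without overlap and higher. The rule that names genes ranks them by p, so this share is a description. The limma adjusted p was 0.958 for each of the 24 named genes. The 4 other tested probe sets of these 12 genes had a mean ratio of the same sign. Probe sets too dim to be tested had the opposite sign for COL1A1, CLIP3 and FOSL2, which have no other tested probe set.

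**Figure D3:**
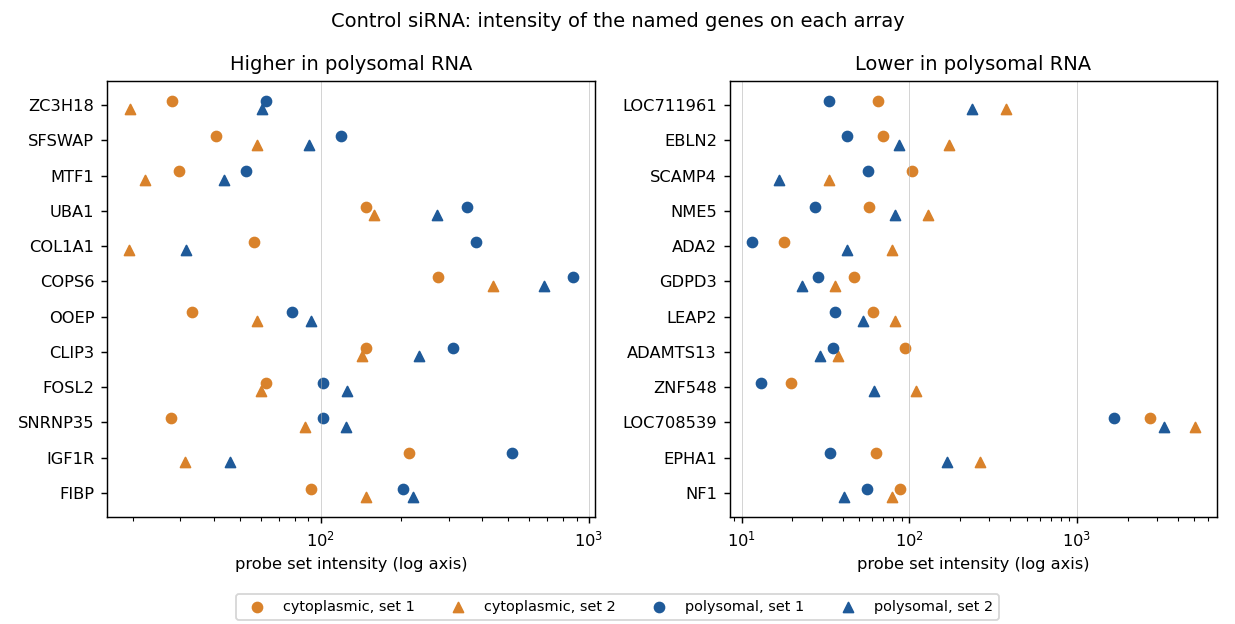
Probe set intensity on a log axis for the 12 genes named as higher (left) and the 12 named as lower (right) in polysomal RNA, with one point per control siRNA array, coloured by fraction and shaped by set. Polysomal points lie to the right of the cytoplasmic point of their set in the left panel and to its left in the right panel. The rule that names genes requires this. The gap between sets is often larger than the gap between fractions, as for IGF1R, LOC711961 and EPHA1.

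The genes named as lower in polysomal RNA had smaller ratios, from -0.67 to -0.93, or 0.525-fold to 0.630-fold. SCAMP4, a secretory carrier membrane protein, had an intensity of 103 and 33.0 in cytoplasmic and 56.5 and 16.7 in polysomal RNA, with ratios of -0.87 and -0.99. EPHA1, an ephrin receptor, had 62.9 and 263 against 33.9 and 167, with ratios of -0.89 and -0.65. The rule for named genes requires 1 sign in both sets. In SCAMP4 and EPHA1 the fractions overlapped because the sets differed more than the fractions. NF1, the Ras GTPase-activating protein of neurofibromatosis, had 88.0 and 79.1 against 55.9 and 40.7 without overlap, with ratios of -0.66 and -0.96. Of the 3 other tested probe sets of NF1, 1 had the same sign.

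Of these genes, 3 encode secreted proteins. ADAMTS13, the protease that cleaves von Willebrand factor, had 94.1 and 37.7 in cytoplasmic and 34.9 and 29.3 in polysomal RNA, with ratios of -1.43 and -0.36. ADA2, a secreted adenosine deaminase, had ratios of -0.64 and -0.90. LEAP2, a secreted peptide that blocks the ghrelin receptor, had 61.0 and 82.2 against 36.2 and 52.8, with close ratios of -0.75 and -0.64 and no overlap. GDPD3, a membrane-bound lysophospholipase D, had 46.9 and 36.2 against 28.4 and 23.1, with ratios of -0.72 and -0.65 and no overlap. Each of these 4 was lower in polysomal RNA in both sets, which the rule for named genes requires.

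The remaining named genes with lower ratios were of varied kinds. EBLN2, a gene derived from an ancient bornavirus nucleoprotein, had 69.9 and 171 in cytoplasmic and 42.5 and 86.6 in polysomal RNA, with ratios of -0.72 and -0.98. NME5, a nucleoside diphosphate kinase family member of cilia and sperm, had ratios of -1.07 and -0.66. ZNF548, a zinc-finger gene, had 19.6 and 109 against 13.1 and 61.9, with ratios of -0.59 and -0.81. Both set 1 intensities of ZNF548 were below the intensity limit of 19.9, so its set 1 ratio rests on levels below that limit. LOC711961 had 65.0 and 378 against 33.4 and 236, with ratios of -0.96 and -0.68. LOC708539 was the brightest, with 2705 and 5064 against 1658 and 3282, and ratios of -0.71 and -0.63. In 4 of these 12 genes the fractions did not overlap, against 463 of all genes (4.58%) without overlap and lower.

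The RHA siRNA arrays are a separate pair of each fraction, and their ratios are set beside these as a description. They are not an independent check, since they entered the spread in the fit whose p-values ranked the named genes. Of the 12 genes named as higher, 2 had a ratio above 0 in both RHA sets and 6 had one below 0 in both. Among all genes, 32.3% were above 0 in both RHA sets and 25.1% below. The 2 were IGF1R, with RHA ratios of 0.72 and 1.06, and MTF1, with 0.14 and 0.29. UBA1 was opposite, with -0.98 and -0.48, as were COL1A1 with -0.75 and -0.87 and CLIP3 with -0.52 and -0.54. Of the 12 genes named as lower, 7 were below 0 in both RHA sets, among them LOC711961 with -1.0 and -0.89, EBLN2 with -0.95 and -0.57, LOC708539 with -0.57 and -0.33 and LEAP2 with -0.36 and -0.45. ZNF548 was opposite, with 0.52 and 0.40. The difference of the ratios between the siRNAs gave 0 calls of 26383 probe sets with limma (0%), a smallest adjusted p of 0.967 and 1048 probe sets at an unadjusted p under 0.05 (3.97%).

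**Figure D4:**
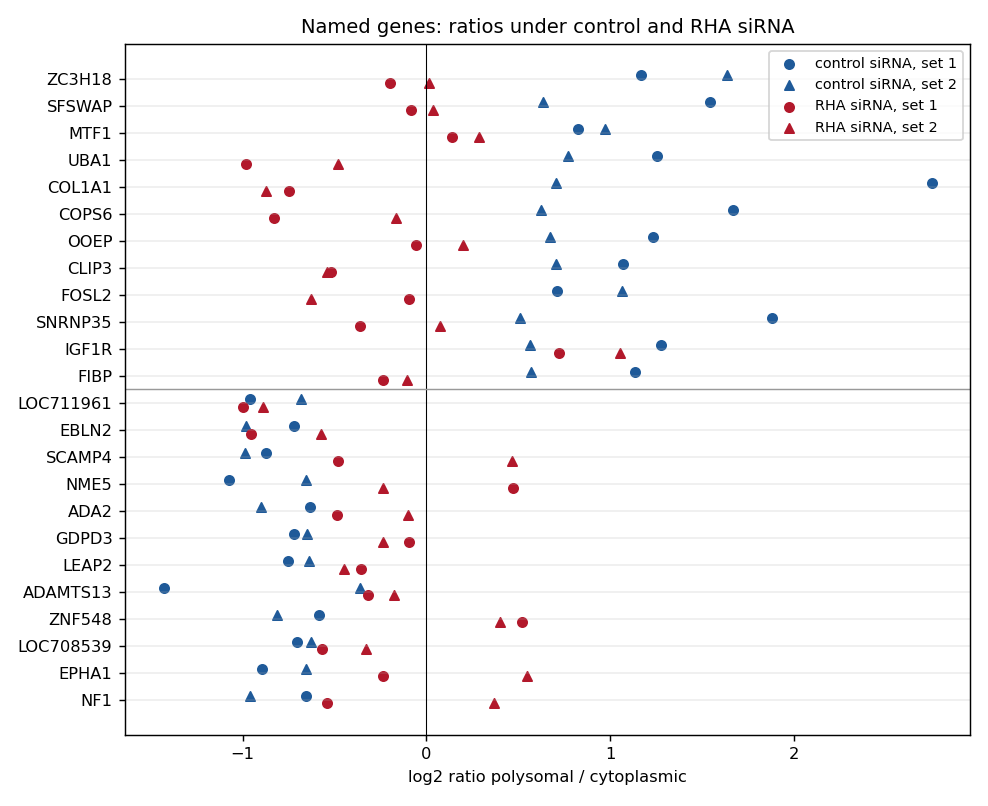
Log2 ratio of polysomal over cytoplasmic intensity for the 24 named genes, with both sets under control siRNA and both sets under RHA siRNA. Of the 12 genes named as higher under control siRNA, 6 lie below 0 in both RHA sets, and of the 12 named as lower, 7 lie below 0 in both.

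Ratios that kept their sign in all 4 fraction pairs, under either siRNA, were found for 2287 probe sets that were higher (8.67%) and 1655 that were lower (6.27%). Unrelated ratios would also share a sign in all 4 pairs for a part of the probe sets, so these shares are a description. At 0.5 or more on the log2 scale in all 4, there were 6 higher and 16 lower probe sets. The higher ones were those of IGF1R, MN1, a transcriptional coregulator, BIRC3, an inhibitor of apoptosis, ZNF549, a zinc-finger gene, KCNK1, a potassium channel, and ZFC3H1, which routes nuclear RNA to the exosome. Of the lower ones, 5 carried a gene name: MED6, SYNPO2, EBLN2 and both probe sets of LOC711961. The genes of this paragraph other than IGF1R, EBLN2 and LOC711961 were chosen after their values were seen. MED6, a subunit of the Mediator complex, had 34.7 and 195 in cytoplasmic and 17.7 and 83.7 in polysomal RNA under control siRNA, with ratios of -0.97 and -1.22. Under RHA siRNA the ratios of MED6 were -1.22 and -0.85. KCNK1 had ratios of 1.15 and 0.57 under control and 0.79 and 1.22 under RHA siRNA.

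DHX9 and JUND bear on the protein that the study depleted. DHX9, read by its 1 tested probe set with the intensities given above, was higher in polysomal control RNA in both sets, by 0.56 and 0.48, without overlap and with a mean of 0.52 ± 0.31 (SE). Under RHA siRNA its ratios were -0.42 and 0.08. JUND encodes an AP-1 subunit, and its mRNA is known to need RHA for translation. JUND had 42.04 and 38.3 in cytoplasmic and 75.5 and 52.8 in polysomal control RNA. Its ratios were 0.84 and 0.46, without overlap, with a mean of 0.65 ± 0.32, and under RHA siRNA they were 0.15 and -0.09. By limma, the ratios of DHX9 and JUND in control RNA had an adjusted p of 0.958 and their differences between the siRNAs an adjusted p of 0.967.

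Of 34 gene lists with at least 5 measured members, 22 had a median mean ratio above that of all genes (0.08). No list had a called member (0% of all probe sets were called). For each list the count of members above the median of all genes in both sets is given below, which 2682 of all genes (26.5%) reached, with as many below it in both.

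Glycolysis had the highest list median of the mean ratio, 0.54, followed by DExD/H-box helicases at 0.31 and the proteasome at 0.29. Of 14 glycolytic enzymes, 12 had a mean ratio above 0 and 8 were above the median of all genes in both sets, with a list median of 0.80 in set 1 and 0.18 in set 2. TPI1, which interconverts the triose phosphates, had an intensity of 325 and 1013 in cytoplasmic and 1449 and 1121 in polysomal RNA, so its set 1 ratio of 2.16 stood beside 0.15 in set 2. The other tested probe set of TPI1 had a mean ratio of the opposite sign. GPI, which isomerises glucose 6-phosphate, had ratios of 1.52 and 0.47, and PKM, the last enzyme of glycolysis, had 1.55 and 0.37. GAPDH, read by a gene probe set apart from the 3' and 5' controls, had 1.11 and 0.46, values between those of its ends in set 1 and above both in set 2. Under RHA siRNA the list medians were -0.37 and -0.01. The list median without the cytoplasmic control array of set 1 was 0.37, against 0.54 with it.

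Of 27 proteasome genes, 25 were above 0, 17 were above the median of all genes in both sets and 2 below it in both, with medians of 0.49 and 0.15. PSMD2, a scaffold subunit of the regulatory particle, had an intensity of 133 and 319 in cytoplasmic and 945 and 426 in polysomal RNA, with ratios of 2.83 and 0.42. PSMD8, another regulatory subunit, had 610.3 and 648 against 1427 and 889, with ratios of 1.23 and 0.46, and PSMB7, a catalytic subunit with trypsin-like activity, had 1.33 and 0.21. PSMD11, also a regulatory subunit, had 2.00 and -0.19, so its sign differed between the sets. The higher ratio lay in set 1 for each of these. Under RHA siRNA the medians of the list were -0.26 and 0.18.

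Of 52 nuclear-encoded genes of oxidative phosphorylation, 44 were above 0, 19 were above the median of all genes in both sets and 6 below. The medians were 0.09 and 0.22, so this was one of the lists with the higher value in set 2. In set 1 its median was slightly below that of all genes, 0.10. ATP5F1B, the catalytic subunit of ATP synthase, had an intensity of 318 and 545 in cytoplasmic and 1276 and 809.5 in polysomal RNA, with ratios of 2.01 and 0.57. UQCRC2 had ratios of 1.78 and -0.16, and COX8A had 1.70 and 0.05. NDUFS8, an iron-sulfur subunit of complex I, had 324 and 330.1 against 679 and 502, with ratios of 1.07 and 0.61 under control and -0.86 and -1.03 under RHA siRNA. The 63 mitochondrial ribosomal protein genes had medians of 0.11 and 0.13, with 20 above the median of all genes in both sets and 14 below.

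Genes of the translation machinery were divided. Of 28 aminoacyl-tRNA synthetases, which charge tRNAs, 17 were above the median of all genes in both sets and 5 below, with medians of 0.32 and 0.16. CARS2, the mitochondrial cysteinyl-tRNA synthetase, had an intensity of 40.9 and 32.3 in cytoplasmic and 67.1 and 57.9 in polysomal RNA, with close ratios of 0.71 and 0.84 and no overlap. Of 23 initiation factors, 9 were above and 4 below, with medians of 0.29 and 0.14. EIF4G1, the scaffold of the cap-binding complex, had ratios of 1.73 and 0.36 but an intensity of 8.6 on the cytoplasmic array of set 1 and 197 on that of set 2, and EIF3B had 2.18 and 0.18, with the opposite sign in its other tested probe set.

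Cytosolic ribosomal protein genes lay on the other side. Of 35 measured of 79 listed, 5 were above the median of all genes in both sets and 21 below it, with medians of -0.02 and -0.05. They were also among the brightest, with a median log2 level of 12.1 over all arrays. RPL5, of the large subunit, had an intensity of 30.3 and 94.2 in cytoplasmic and 21.5 and 51.8 in polysomal RNA, with ratios of -0.49 and -0.86 under control and -1.0 and -1.15 under RHA siRNA. RPL31 had -1.02 and -0.18, and RPS16, of the small subunit, -0.45 and -0.46. RPL4 went the other way, with 0.32 and 0.52. Each of these genes was far dimmer than the list's median. Over all arrays the mean log2 level was 5.12 for RPL5, 7.29 for RPL31, 4.55 for RPS16 and 5.89 for RPL4. The mean log2 level of RPS16 in polysomal control RNA, 4.18, was below the limit of 4.32, so its ratio rests on a level below that limit. Ribosomal protein genes have many processed copies, and a probe set may read more than its named gene. After quantile normalization the list median was -0.02, and its place against all genes turned to 0.01 above. Of 17 other TOP mRNAs, 3 were above the median of all genes in both sets and 7 below, with medians of 0.12 and -0.06.

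Replication-dependent histone genes, whose mRNAs end in a stem-loop in place of a poly(A) tail, had list medians below that of all genes. Of 18 measured, 4 were above the median of all genes in both sets and 10 below, with medians of -0.13 and -0.06. H1-3, a linker histone, had an intensity of 37.9 and 370.2 in cytoplasmic and 28.8 and 300.5 in polysomal RNA, with ratios of -0.40 and -0.30, and H4C8 had -0.32 and -0.31. H2AC6 had 0.42 and 0.51, with the same sign in its 2 other tested probe sets, and H2BC8, whose cytoplasmic mean log2 level of 4.14 was below the limit of 4.32, had 0.43 and 0.35. The list was dim, with a median log2 level of 5.12, and the dimmest bin of genes (up to 5.35) had medians of -0.10 in set 1 and 0.0073 in set 2. The part of brightness in the list's place was not tested. In the fit without the set 1 cytoplasmic control array the list median was 0.02, against -0.09 with it and -0.06 in set 2 alone.

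RNA helicases and splicing factors were above the middle. Of 40 DExD/H-box helicases, 34 were above 0, 19 were above the median of all genes in both sets and 5 below, with medians of 0.51 and 0.21. DDX41, a helicase of the spliceosome, had an intensity of 48.0 and 76.5 in cytoplasmic and 120 and 100.1 in polysomal RNA, with ratios of 1.32 and 0.39 and no overlap. DDX39A, of mRNA export, had 0.99 and 0.49, while DHX33, of ribosome biogenesis, had 2.10 and 0.02. Of 55 splicing and hnRNP genes, 44 were above 0, 21 were above the median of all genes in both sets and 8 below, with medians of 0.34 and 0.09. HNRNPU, a nuclear matrix RNA-binding protein, had 36.8 and 461 in cytoplasmic and 252 and 707 in polysomal RNA, with ratios of 2.77 and 0.62 and overlap between the fractions, and 1 of its 2 other tested probe sets had the same sign. HNRNPC had 2.31 and -0.40, and PRPF8, the core protein of the spliceosome, 2.17 and 0.30. Without the set 1 cytoplasmic control array the median of the helicases was 0.17 and that of the splicing genes 0.09, against 0.05 for all genes.

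Cytoskeletal, chaperone and cell cycle genes had higher medians in set 1 than in set 2, as glycolysis, proteasome, helicase and splicing genes also did. Of 37 cytoskeletal genes, 17 were above the median of all genes in both sets and 7 below, with medians of 0.32 and 0.12. TUBB, a beta tubulin, had 2.16 and 0.09, and PFN1, which binds actin monomers, had 1.2 and 0.34. Of 30 cytosolic chaperone genes, 13 were above and 4 below, with medians of 0.44 and 0.05, and leaving out the set 1 cytoplasmic array put the list median at -0.03 against 0.22 with it. CCT7, a chaperonin subunit, had 1.78 and 0.15 and HSP90AB1 had 1.69 and 0.15. Of 33 G1/S and replication genes, 15 were above and 4 below, with medians of 0.24 and 0.14. MCM4, of the replicative helicase, had 2.36 and 0.32, while POLA2, of DNA polymerase alpha, had 0.68 and 0.62. Of 30 G2/M genes, 9 were above and 6 below, with medians of 0.19 and -0.01.

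**Figure D5:**
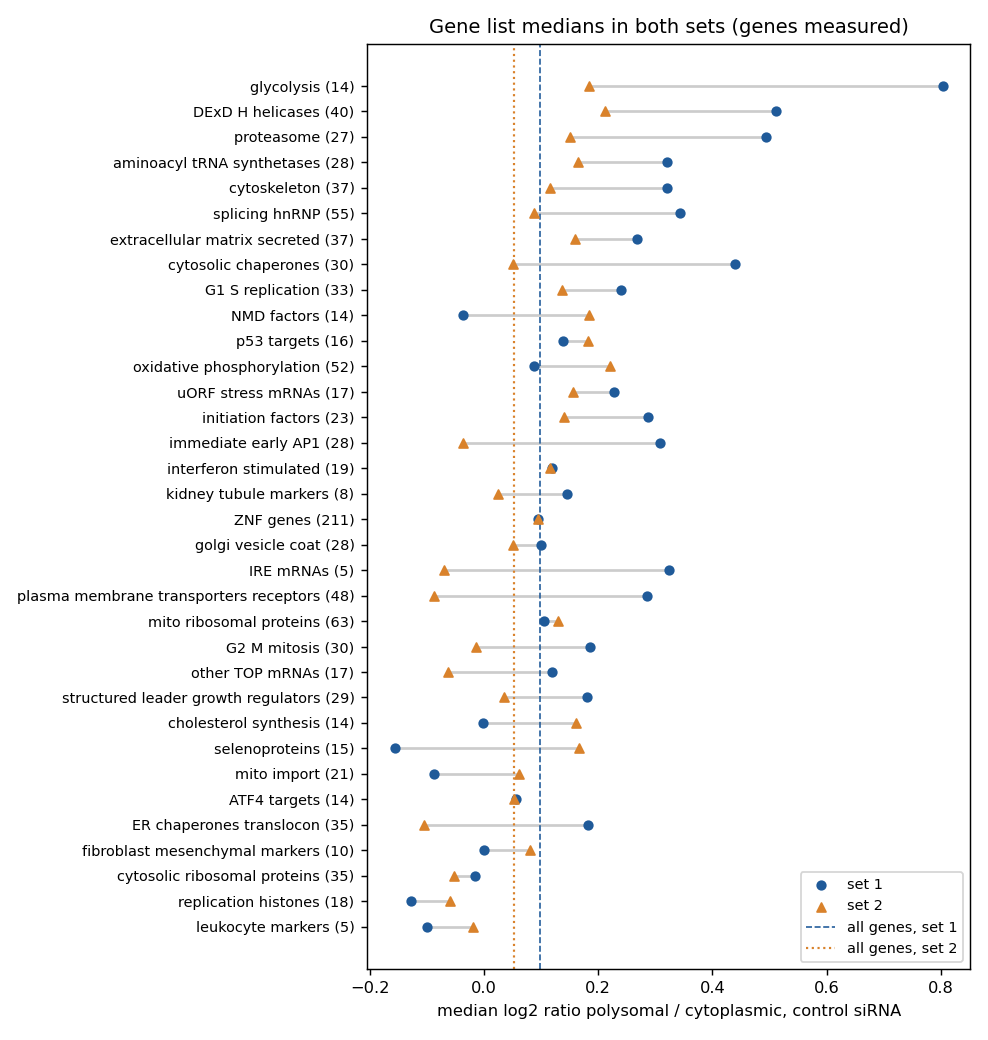
Median log2 ratio of each gene list under control siRNA in set 1 and set 2, with the number of measured genes in brackets and the median of all genes in each set as vertical lines. Glycolysis is the highest list in set 1 at 0.80 and lies at 0.18 in set 2, and cytosolic ribosomal protein genes and replication histones lie left of the line in both sets.

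Secreted and membrane protein genes are translated at the endoplasmic reticulum. Of 37 extracellular matrix and secreted genes, 28 were above 0, 20 were above the median of all genes in both sets and 3 below, with medians of 0.27 and 0.16. LAMB2, a laminin chain, had an intensity of 24.2 and 20.5 in cytoplasmic and 32.4 and 38.5 in polysomal RNA, with ratios of 0.42 and 0.91, and MMP2, a gelatinase, had 0.40 and 0.54. Without the polysomal control array of set 1 the list median was 0.041, below all genes, against 0.24 with it. Of 35 genes of endoplasmic reticulum chaperones and the translocon, 7 were above and 13 below, with medians of 0.18 and -0.11. P4HB, a protein disulfide isomerase, had 1.28 and 0.18. Of 48 plasma membrane transporters and receptors, 10 were above and 15 below, with medians of 0.29 and -0.09. EGFR had an intensity of 19.9 and 17.4 in cytoplasmic and 327 and 15.4 in polysomal RNA, a ratio of 4.04 in set 1 and -0.17 in set 2. Of its 4 control arrays only the polysomal one of set 1 was above the intensity limit of 19.9, so neither ratio has a cytoplasmic level above that limit. Of 28 Golgi and vesicle coat genes, 9 were above and 9 below.

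mRNAs with regulated leaders lay on both sides of all genes. Of 17 genes with known upstream open reading frames, 7 were above the median of all genes in both sets and 3 below, with medians of 0.23 and 0.16. DDIT3, the stress factor CHOP, had an intensity of 281 and 309.6 in cytoplasmic and 362 and 391 in polysomal RNA, with close ratios of 0.37 and 0.34 and no overlap. Of 29 growth regulators with long or structured leaders, 8 were above and 9 below, with medians of 0.18 and 0.03, and MYC had 1.14 and 0.14. Of 28 immediate-early and AP-1 genes, which respond to serum, 12 were above and 7 below, with medians of 0.31 and -0.04, and FOS had 60.1 and 29.8 against 79.7 and 54.5. Of 14 ATF4 targets, 4 were above and 6 below. Of 15 selenoprotein genes, whose UGA codons are read as selenocysteine, 3 were above and 4 below, with medians of -0.16 and 0.17.

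Zinc-finger genes with a ZNF symbol were near all genes under control siRNA, with 67 of 211 above the median of all genes in both sets, 50 below and medians of 0.10 and 0.09. Their medians under RHA siRNA were 0.10 and 0.33. In all 4 pairs 55 of the 211 (26.1%) were above 0, against 956 of all 10106 genes (9.46%). ZNF317 had ratios of 1.22 and 0.58, and ZNF160 had 1.65 and 0.46, with the opposite sign in both of its other tested probe sets. The list was dim, with a median log2 level of 6.14 against 6.73 for all genes.

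The remaining lists had few members or values near all genes. Of 14 nonsense-mediated decay factors, 5 were above the median of all genes in both sets and 5 below. Of 16 p53 targets 7 were above and 2 below, in cells whose large T antigen binds p53, and CDKN1A, the cyclin-dependent kinase inhibitor p21, had 0.15 and 0.59. Of 19 interferon-stimulated genes 6 were above and 3 below, and OAS3, a sensor of double-stranded RNA, had 1.53 and 0.62. Of 21 mitochondrial import genes 3 were above and 8 below, of 14 cholesterol synthesis genes 2 and 2, and of 5 genes with iron-responsive elements 1 and 0. Kidney tubule markers had 3 of 8 above and 3 below, fibroblast markers 3 of 10 above and 4 below, and leukocyte markers 1 of 5 above and 2 below with medians of -0.10 and -0.02. The lists of hepatocyte markers, nuclear noncoding RNAs and snoRNA host genes had 2, 1 and 1 measured members. Of their members, 6 of 10, 1 of 20 and 1 of 17 had a probe set with their symbol on the array. H19, the noncoding RNA measured, had -0.72 in set 1 and 0.62 in set 2, and TAF1D, the snoRNA host, had 0.08 and 0.07. Of 28 transcripts of the mitochondrial genome, 0 had a probe set with their symbol on the array. Their level in either fraction could therefore not be read.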

How the data were processed

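The authors deposited a table of linear intensity per probe set and array, which was used as given. GCOS and RMA appear in the submitters' processing notes without version or role. Scale and normalization are otherwise not given in the sources used here, and array medians were close, so the values were taken as already normalized. Values were put on the log2 scale. Of 52865 probe sets, 99 were Affymetrix controls. The 26383 of the other 52766 (50%) with the higher mean log2 intensity over all 8 arrays were tested, a limit of 4.32 (intensity 19.9). Of these, 16072 had 1 gene symbol in the platform annotation, for 10106 of 14132 genes on the array. Each gene was read by its brightest probe set.

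Ratios were tested in R 4.3.3 by limma 3.58.1, with lmFit, eBayes, two-sided p-values and Benjamini-Hochberg adjustment, on all 8 arrays, as 4 groups with the replicate number as a block. The fit was tested on simulated data. The replicate numbers come from the titles. Deviations from group means of same-numbered arrays correlated at 0.680 to 0.868 over the 6 pairs of groups, but with only 2 arrays per group the numbers are not shown to mark a shared culture. The named genes had ratios of 1 sign in sets 1 and 2 and a mean above the limit in both groups, and were 12 per direction by smallest p, since none was called. Up to 4 members per list with the largest absolute mean ratio, DHX9 and JUND were added. The comparison, its lists and rules were chosen with earlier results of these data known. Alternatives covered the block, the arrays in the fit, the filter, an offset, the normalization, the variance model and each array left out. Arrays have no read depth, and their number limits the precision. Probe sequences, protein sequences and scan dates were not used here.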

Additional observations from a re-analysis of the deposited data

Results flagged for a closer look

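For 4 gene lists, both sets had a median ratio of 1 sign under control siRNA and of the other sign under RHA siRNA, with signs taken against a ratio of 0. The difference between the siRNAs was not tested for these lists. The median over members of the RHA ratio minus the control ratio was -0.76 for glycolysis, -0.37 for extracellular matrix and secreted genes, -0.37 for the cytoskeleton and -0.091 for growth regulators with structured leaders. Against the median of all genes the last list already lay on the lower side in set 2 under control siRNA (a difference of -0.018, and 0.08 in set 1), so on that reference its sign did not turn in both sets. In set 1 the medians under control and RHA siRNA were 0.80 and -0.37 for glycolysis and 0.27 and -0.28 for extracellular matrix genes. In set 2 they were 0.18 and -0.01, and 0.16 and -0.08. The 5' ends of the control transcripts moved with this in set 1: the actin ratio at the 5' end was 2.33 under control and -1.06 under RHA siRNA, and that of GAPDH was 1.80 and -1.16. In set 2 the 5' ratio of actin was -0.82 under control and -0.66 under RHA siRNA, and that of GAPDH was -0.13 and -0.52. The part of this in the list medians was not tested.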

How the results depend on the processing

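The control siRNA comparison gave 0 calls with limma under every alternative fitted except 1. Over the fits that each left out 1 array it ranged from 0 to 748, with 748 without the cytoplasmic control array of set 2. Without the replicate block there were 0 calls and 55 probe sets at an unadjusted p under 0.05, against 1087 with it. The RHA siRNA comparison and the difference between the siRNAs gave 0 calls in every fit, from 0 to 0 with each array left out. The number of lists above the median of all genes was 22, 20 to 25 with each array left out, 25 after quantile normalization, 23 in set 1 and 21 in set 2. The lists on the same side of all genes in all 16 fits were initiation factors, oxidative phosphorylation, histones, proteasome, glycolysis, cytoskeleton, upstream reading frames, aminoacyl-tRNA synthetases, helicases, splicing, G1/S genes and leukocyte markers. Of 421 values for the 24 named genes, 0 changed sign. Of 646 list medians, 531 stayed within the spread between sets and 115 moved further. Many of these values could not move. Removing the block or the filter, changing the variance model or leaving out RHA siRNA arrays left the control siRNA ratios as they were. The named genes were also picked for 1 sign in both sets. These counts, and the lists on the same side in all 16 fits, were thus partly fixed in advance. The planned comparison by protein length was not run. With 2 arrays per group, a ratio within about 0.629 of 0 was not separable from 0 for the median probe set, by an interval not adjusted for the number of probe sets. A call after adjustment needed more. Mean ratios of 2-fold or more were found for 377 probe sets that were higher and 17 that were lower, and 0 were called.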
